A study of Oryza sativa with 3 samples.

Results

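Regular arrays were stretches of the rice genome in which at least 4 nucleosome calls followed each other at nearly even distances. They were chosen by the calls of a paired-end MNase-seq library. Calls were sorted by their centres on each chromosome, and a run was kept when it had 4 or more consecutive calls and every distance between adjacent centres, here named a step, was 160 to 210 bp. This rule gave 8023 arrays out of 3176680 runs of any length, and they held 35133 of the 3456855 calls (1.02%). The remainder were 224462 runs of 2 or 3 calls and 2944195 calls with no step in that range on either side.

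All samples came from seedling leaf of the rice cultivar Nipponbare, 2 weeks old and without any treatment other than the enzyme. Micrococcal nuclease (MNase) digestion of nuclei was followed by isolation of mono-nucleosomal DNA from a gel. The paired-end library was 1 biological replicate, on which the authors made the calls with nucleR. A different biological replicate was sequenced as 36-bp single-end reads in 2 technical replicates, deposited together as 26516807 uniquely mapped reads. The 2 forms are no treated and control groups, so arrays were compared with shorter runs within the same data.

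A nucleosome is a stretch of DNA wrapped around a histone octamer, and its midpoint is the dyad. Neighbouring nucleosomes are joined by linker DNA, which MNase cuts in preference to the wrapped DNA. The distance from one dyad to the next, the repeat length, is core plus linker, and chromatin remodelling enzymes known from yeast and flies can set it evenly over many nucleosomes. Where most cells place their nucleosomes at the same positions, the array is called phased, and a population of cells then shows peaks and troughs in the reads. Where cells differ, the average is flat even if every single fibre is regular.

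Because the rule used the calls, the number of calls per run and the steps are a description of the chosen regions. Arrays of 4 calls were the most frequent (5894, or 73.5%), followed by 1530 of 5 calls, 391 of 6, 149 of 7 and 35 of 8. The other 24 had 9 to 12 calls, and 1 array reached 12. Of all runs, 7.32% went on past the first call. The share that went on was 15.8% of runs with at least 2 calls, 21.9% of those with at least 3 and 26.5% of those with at least 4. It was 28.1% at 5 calls and 34.7% at 6, and then 28.4% at 7, where only 208 runs were left. Up to 6 calls, a run that was already longer was thus more often followed by a further step in range. The median array spanned 668 bp from the start of its first call to the end of its last (lowest 602 bp, highest 2016 bp). Together they covered 5819 kb, or 1.56% of the 372 Mb of the 12 chromosomes.

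Steps in arrays had a median of 177 bp and a mean of 179 ± 13.5 bp (SD, 27110 steps), with quartiles of 168 and 189 bp. All steps of 160 to 210 bp in the list had the same median (177 bp). Both sets were cut to the same range, which limits how far their medians could differ. Arrays held a larger share of steps of 170 to 179 bp (26.9% against 23.6% of all steps in range). Their share of steps of 200 to 209 bp was smaller (9.61% against 12.1%). Within an array the SD of the steps had a median of 12.1 bp, whereas the mean steps of the arrays had an SD of 7.56 bp. A short step was not followed by a long one or by another short one to any extent (Pearson's r = -0.018, Spearman's rho = -0.021 over 19087 pairs of neighbouring steps, which share calls and are not independent). The first and last steps averaged 179.6 ± 13.8 bp and the inner ones 178.5 ± 13.1 bp, a difference far below their SD.

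The limits of 160 and 210 bp cut through a smooth distribution. The list held 44160 steps of 160 to 164 bp, just inside the lower limit, and 44156 steps of 155 to 159 bp, just outside. At the upper limit there were 15006 steps of 206 to 210 bp inside and 12541 of 211 to 215 bp outside. Most steps were far shorter, since 76.3% were under 120 bp and joined calls that overlap. Only 8.10% of all steps were in range. An array was thus a place with a single call at each position, next to which alternative overlapping calls were the common state of the genome.

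What lay beyond an array was read from the next call outward. At 56.3% of the 16046 array ends the next call overlapped the last one, and at 21.9% it came at 120 to 159 bp. At 5.32% of the ends it came at 211 to 259 bp, at 8.26% at 260 to 399 bp and at 8.24% at 400 bp or more. Among all steps of the list that were out of range the corresponding shares were 83.1%, 10.8%, 2.10%, 2.21% and 1.79%. Array ends thus held a smaller share of overlapping calls and larger shares of the other 4 classes. Since an array needs a call without overlapping neighbours on its inner side, these shares describe the chosen regions and carry no test. Overlapping calls lay at both ends of 2541 arrays, a gap of 260 bp or more faced an overlapping call across 1624 arrays, and gaps lay at both ends of 121. Most arrays lay far from the next, with a median of 30006 bp from the last centre of one to the first centre of the next. Within 1 kb of each other were 380 pairs of neighbours, and 129 pairs were parted by a single step, which had a median of 218 bp. Whether close pairs were more frequent than under independent placement was not tested.

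The longest array shows what such a region looked like in the single-end reads, which the rule did not use. It had 12 calls on chromosome 2 from 14827317 to 14829333 (TIGR release 5). Its 11 steps were all between 164 and 176 bp, except for 1 of 200 bp between the seventh and the eighth call, and had an SD of 10.1 bp. Each read was moved 73 bp inward from its 5′ end to the expected dyad, and these read centres were counted within 20 bp of each call, a window of 41 bp. The numbers at the 12 calls were 1, 0, 12, 0, 3, 0, 5, 2, 1, 3, 0 and 0, and none of the 11 midpoints between calls had a read centre. The reads were few, yet all 27 counted in these windows fell on 7 of the calls.

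The next longest arrays had 11 calls each. The one on chromosome 4 from 11805472 to 11807288 had 21, 21, 7, 13, 0, 0, 3, 0, 4, 5 and 4 read centres at its calls. Its 10 midpoints held 5 in total, with no more than 3 at any. The one on chromosome 1 from 31816014 to 31817849 had 5, 14, 6, 8, 6, 2, 2, 4, 10, 6 and 9 at its calls, so that every call was occupied, against 7 in total at 10 midpoints. In both arrays the read number differed several-fold between calls at similar distances. Among arrays of 8 or more calls, the most even steps were found on chromosome 4 from 30794360 to 30795700 (SD of steps 6.26 bp), on chromosome 10 from 5333707 to 5335013 (7.04 bp) and on chromosome 7 from 11288935 to 11290296 (7.06 bp). These had 34, 56 and 43 read centres at 8 calls, against 5, 5 and 13 at 7 midpoints. The array on chromosome 7 was the least clear of them, as 2 of its midpoints held 6 and 5 read centres. Genes and sequence at these places were not analysed here, since the gene table at hand belongs to another build.

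**Figure D1:**
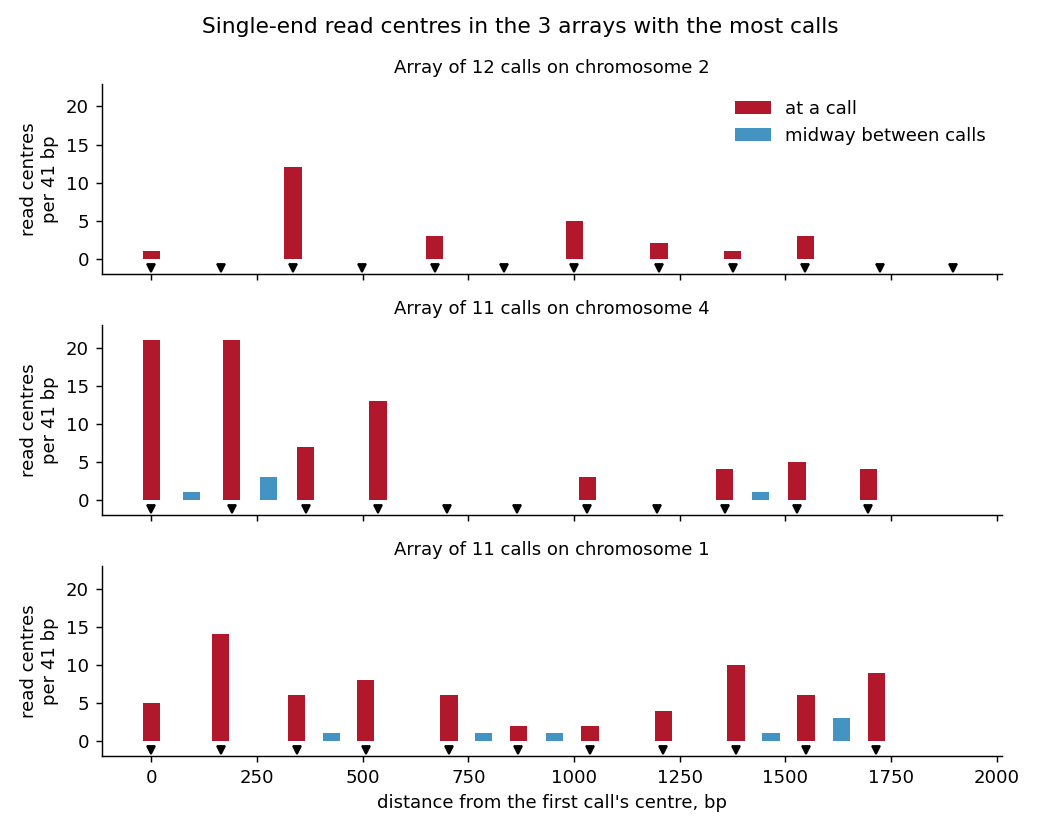
Single-end read centres in the 3 arrays with the most calls. The horizontal axis is the distance from the centre of the first call in bp, bars give read centres per 41-bp window at calls (red) and midway between calls (blue), and triangles mark the calls. The 12-call array on chromosome 2 had 27 read centres at calls and none at midpoints, and the arrays of 11 calls had 78 against 5 and 72 against 7.

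Over all arrays, the single-end reads fell on the calls of the other library and avoided the positions between them. Arrays had 5.84 read centres per call (range 5.35 to 6.34 over the 12 chromosomes) and 1.09 per midpoint (1.02 to 1.17). A 41-bp window at the mean density of the genome would have 2.92. The ratio of the level at calls to that at midpoints was 5.36 (95% interval 5.29 to 5.42, from the Clopper-Pearson method and covering counting error only). It ran between 4.97 on chromosome 12 and 5.66 on chromosome 3, with an SD of 0.216. Runs of 2 or 3 calls had 4.86 read centres per call and 1.67 per midpoint, a ratio of 2.92 (2.91 to 2.93). Arrays had more at calls, fewer at midpoints and the higher ratio on 12 of 12 chromosomes, and their ratio exceeded that of shorter runs by a factor of 1.84 (1.73 to 1.94 on single chromosomes). No test was run, because 1 biological replicate gives no replicate error. The spread over chromosomes is given instead, and it does not measure variation between replicates. The density of read centres inside arrays was 1.02 times that of the genome (71.3 per kb). Arrays were thus not richer in reads but had them in other places. Both libraries were cut with the same enzyme and kept unique positions only, so what they share in cutting and mapping and what they share in nucleosomes cannot be told apart.

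The contrast grew with the length of the run. It was 10.7 (9.37 to 12.3) for 8 or more calls, 8.40 for 7, 6.76 for 6, 6.09 for 5 and 4.89 for 4, against 3.67 for 3 and 2.75 for 2. On each of the 12 chromosomes runs of 4 were above runs of 3, which were above runs of 2. The level at midpoints carried this order, with 0.503 for 8 or more calls, 0.634 for 7, 0.905 for 6, 0.983 for 5 and 1.19 for 4, against 1.45 for 3 and 1.73 for 2. The level at calls did not follow it throughout. It was 5.39 for 8 or more calls, 5.33 for 7, 6.12 for 6, 5.98 for 5 and 5.79 for 4, against 5.32 for 3 and 4.76 for 2. Runs of 7 or more calls numbered only 208, and their levels at calls varied widely over chromosomes (1.84 to 10.6 for 8 or more calls). Calls without any read centre made up 19.9% for 8 or more calls and 22.8% for 7. The share was 12.1% to 13.8% for 4 to 6 calls, 14.1% for 3 and 16.9% for 2. Whether reads could be mapped uniquely to these calls was not tested. Runs of different length, and arrays and shorter runs, were not matched for what lay at their ends. Among arrays of exactly 4 calls, midpoints had 1.51 and 1.48 read centres where overlapping calls lay at both ends. Where a gap of 260 bp or more faced an overlapping call, they had 0.660, 0.897 and 1.19. How much of the order by length goes with the kind of end was not tested.

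**Figure D2:**
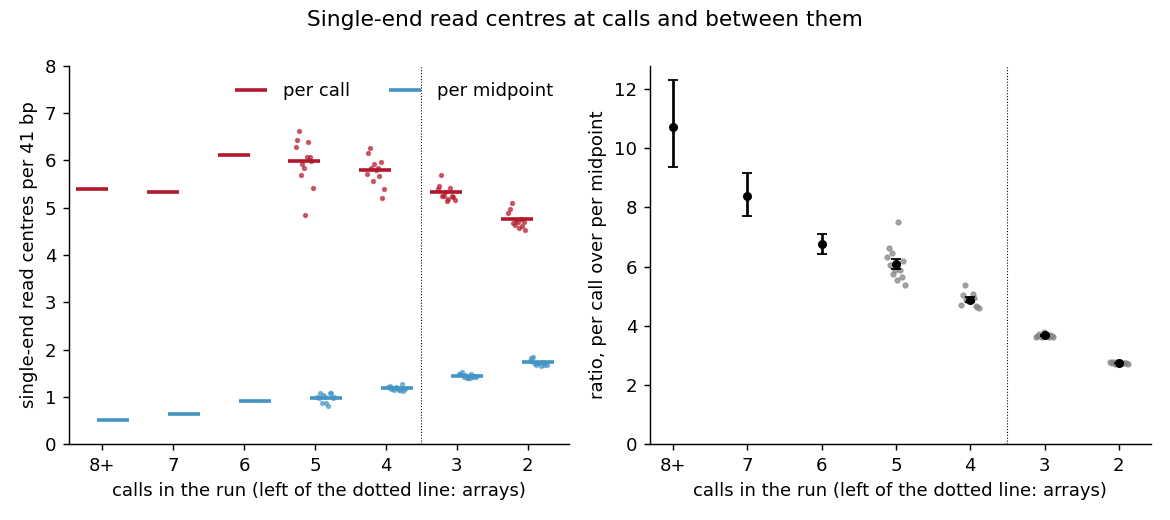
Single-end read centres by number of calls in the run. Left, read centres per 41-bp window at calls (red) and at midpoints (blue), with the pooled value as a bar and, for runs of 5 calls or fewer, the 12 chromosomes as points. Right, their ratio with 95% counting intervals and, again for runs of 5 calls or fewer, the 12 chromosomes in grey. The ratio was 10.7 for 8 or more calls and 2.75 for 2, and the midpoint level 0.503 against 1.73.

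Single arrays followed the average. More read centres per call than per midpoint were found in 7669 of the 8023 arrays (95.6%), the reverse in 176 and equal numbers in 20, while 158 had no read centre in any of these windows. In 5320 arrays (66.3%) every call had at least 1 read centre. In 1228 (15.3%) no midpoint had one. The median array held 49 read centres (5th percentile 9, 95th percentile 107), so that a single array was measured with little precision. The contrast did not follow the number of reads. When arrays were divided by read density into 4 classes of like size, the class with the most reads had a ratio of 5.28, the next ones 5.40 and 5.33, and the class with the fewest 5.52.

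Calls in arrays also had higher nucleR scores than calls in shorter runs (mean 0.591 against 0.539). The score is the authors' own value from the paired-end reads. Scores had a different spread on some chromosomes, with an SD of 0.073 on chromosome 9 and 0.110 on chromosome 2, and 0.142 to 0.162 on the other 10. They were therefore divided within each chromosome into 4 classes, each with an equal number of array steps. Steps whose adjacent calls were in the lowest class had 2.97 read centres per call in arrays, against 2.98 in shorter runs. At the same scores their midpoints had 0.838 in arrays, against 1.25 in shorter runs. In the highest class the calls had 9.46 in arrays, against 9.17 in shorter runs, and the midpoints 1.21 in arrays, against 2.05 in shorter runs. The ratio was 3.55, 4.55, 5.12 and 7.84 in arrays from the lowest to the highest class, against 2.38, 2.74, 3.05 and 4.47 in shorter runs. It was higher in arrays on 12 of 12 chromosomes in each of the 4 classes. With the score of the calls taken into account, the difference between arrays and shorter runs thus lay between the calls, where arrays had fewer read centres.

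Step length was a further property in which steps could be matched. For steps of 160 to 169 bp the ratio was 4.68 in arrays and 2.55 in shorter runs. For steps of 200 to 210 bp it was 6.0 in arrays and 3.52 in shorter runs. In the 3 classes between them it was 5.59 to 6.12 in arrays and 2.93 to 3.26 in shorter runs. Longer steps thus had fewer read centres midway in either kind of run, and arrays were above shorter runs in each class. The window at the midpoint had a fixed width, so in longer steps it lay farther from both calls. The values were not corrected for this. The contrast was lowest in the arrays with the most uneven steps, without a steady order over the classes. Arrays with uneven steps also tended to have longer mean steps (Spearman's rho = 0.435), and the classes were not matched for step length. With arrays in 4 classes by SD of steps, the ratio was 5.32, 5.57 and 5.66 in the more even classes and 4.90 in the class with the most uneven steps, where single chromosomes ranged between 4.27 and 5.60.

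The 5′ ends themselves marked both edges of the nucleosomes. Forward reads started most often 76 bp before the centre of a call in an array, at 2.51 times the genome density. Reverse reads started most often 73 bp after it, at 2.56 times that density. Inside the call both strands fell to 0.396 and 0.404 of the genome density. Joining forward ends to reverse ends downstream gave a most frequent distance of 147 bp inside arrays, as the difference of the end positions. It spans the DNA of a nucleosome core and differed by no more than 1 bp between classes of arrays with short and long steps (146 to 147 bp).

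The distance from nucleosome to nucleosome was then measured from the single-end reads alone. Distances between 5′ ends on one strand inside arrays had maxima at 175, 354 and 531 bp. The first ranged between 171 and 181 bp over chromosomes (SD 2.68 bp). Reads of the genome as a whole had maxima at 181 and 373 bp. The first of these was at the upper end of the range of arrays over chromosomes, and no such range was measured for the second. The height differed as well. The first maximum stood 2.05 times above the lowest point before it in arrays and 1.12 times in the genome. The called steps imposed their own range on the arrays, so that a maximum near 177 bp was given by the choice. Whether the reads followed the steps of each array was not given.

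They did. With arrays in 4 classes of like size by mean step, the class with the longest (mean 189 bp) had its maximum at 187 bp, and the class with the shortest (mean 169.7 bp) had it at 167 bp. The classes between, with means of 181 and 176 bp, had maxima at 181 and 175 bp. The class with the longest steps was above that with the shortest on 12 of 12 chromosomes. From the longest to the shortest class the second maxima were at 375, 361, 353 and 337 bp. The third ones were at 560, 539, 523 and 506 bp. Since the classes were formed by the called steps, reads that sit on the calls would give such maxima. The maxima therefore do not show that single arrays had a repeat length of their own. Single steps were measured in another way. Read centres around adjacent calls were on average 166 bp apart for called steps of 160 to 169 bp (mean 164.5 bp), 184 bp apart for 180 to 189 bp (mean 184 bp) and 202 bp apart for 200 to 210 bp (mean 205 bp). Read centres were searched within 40 bp of each call. Evenly spread reads would thus give the called step itself, so these distances do not show whether the reads followed single steps.

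**Figure D3:**
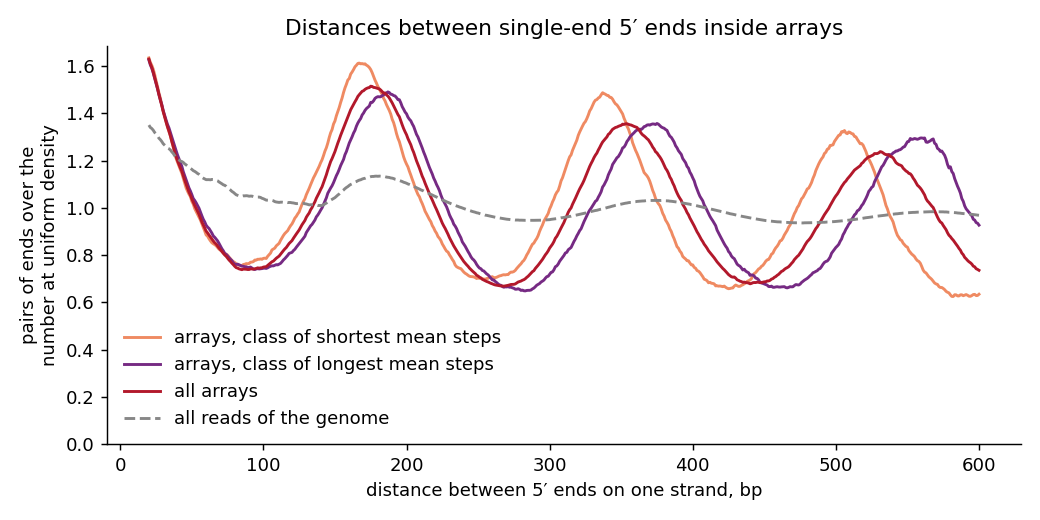
Distances between single-end 5′ ends on the same strand. The horizontal axis is the distance in bp and the vertical axis the number of pairs relative to that at uniform density, smoothed over 11 bp, in the classes of arrays with the shortest and the longest mean steps, in all arrays and in the genome (dashed). First maxima were at 167 bp and 187 bp in these classes, at 175 bp in all arrays and at 181 bp in the genome.

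Beyond the last call the rule itself limits what can follow. The next call outside an array is never 160 to 210 bp away, since the run would then have gone on. The single-end reads were nonetheless periodic outside. Read centres were averaged outward from both ends of all arrays, and the swing was taken as the highest minus the lowest value within each period of 177 bp, as a percentage of the level at 1000 to 2000 bp. Inside the arrays the swing was 159%, 139% and 116% at 1, 2 and 3 periods from the end. Outside it was 58.2%, 34.6%, 17.4%, 12.8% and 6.45% at 1 to 5 periods. At 8 to 10 periods, where no pattern was visible, the same measure gave 4.12% to 5.90%, so the pattern could be followed over 4 periods. Maxima outside were at 180, 367, 560 and 767 bp. The lower and the higher end in coordinates were alike, with 60.3% and 58.6% at 1 period and 34.6% and 35.4% at 2 periods.

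Shorter runs had weaker patterns outside. The swing at 1 period was 58.2% in arrays (SD 5.06 over chromosomes, lowest 52.5%) and 38.8% in runs of 2 or 3 calls (SD 0.887, highest 40.6%). At 2 periods it was 34.6% in arrays (lowest 29.6%) and 22.5% in the shorter runs (highest 25.9%). Calls with no step in range had 20.6% and 4.59%. With fewer ends than shorter runs (16045 against 448901), arrays had the noisier profiles, and noise adds to a swing measured from highest to lowest value. At 8 to 10 periods it was 4.12% to 5.90% in arrays and 1.16% to 2.19% in shorter runs, which is less than the pooled difference at 1 and 2 periods. On single chromosomes the same measure at 8 to 10 periods was 12.2% to 26.6% in arrays and 2.43% to 5.48% in shorter runs, so that values of single chromosomes do not by themselves tell the groups apart.

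What followed outside differed with the neighbouring call. Ends next to an overlapping call had a swing of 65.4% at 1 period, with the maximum at 170 bp. In the averaged reads, the position at which the overlapping call broke the run thus still had a maximum close to 1 step away. Ends whose next call came at 120 to 159 bp had their maximum at 155 bp and a swing of 94.1%, and their second maximum was at 328 bp. Ends whose next call came at 211 to 259 bp had theirs at 221 bp with 129%, on only 852 ends. At ends with a gap of 260 bp or more the read centres were scarce. They dropped to 12.2% of the level at 1000 to 2000 bp and reached 45.9% at their maximum at 180 bp. These gaps in the calls were thus low in the single-end reads too, though not empty. Whether reads could be mapped to them uniquely was not tested.

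**Figure D4:**
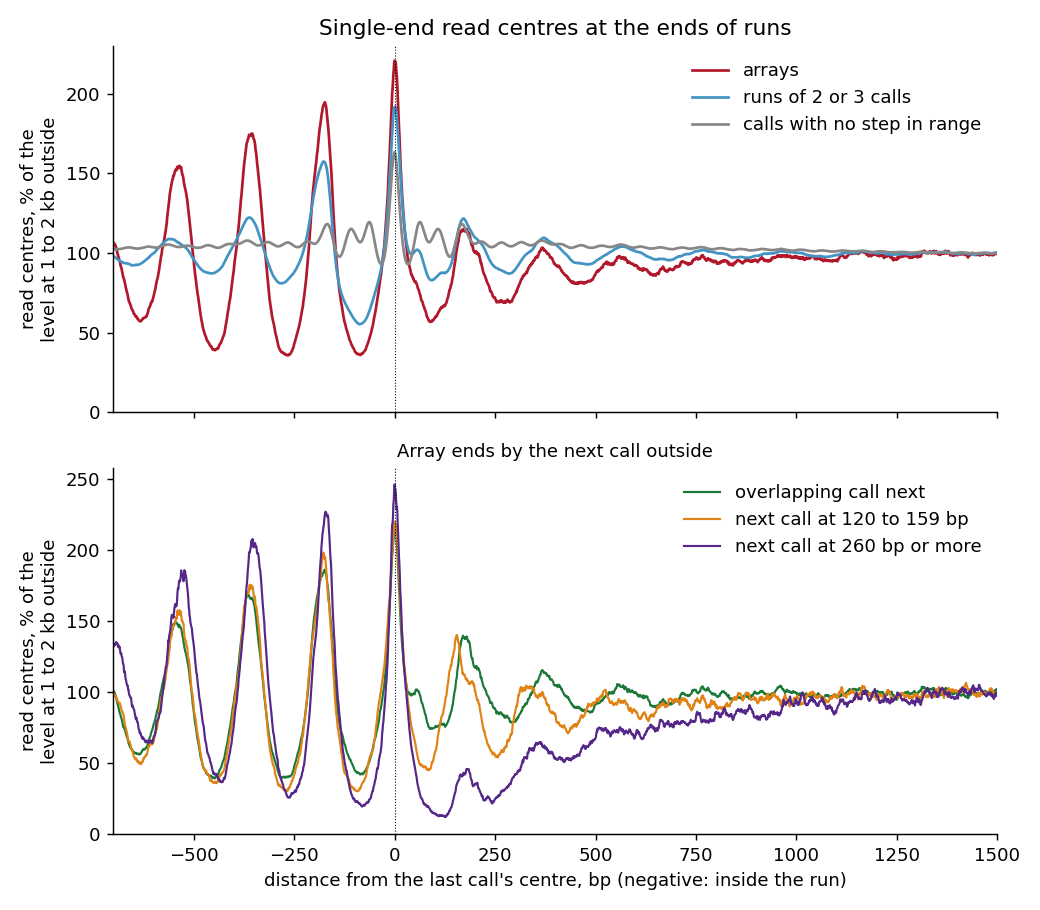
Single-end read centres at the ends of runs, smoothed over 11 bp. The horizontal axis is the distance from the centre of the last call in bp, with negative values inside, and the vertical axis the density as a percentage of that at 1000 to 2000 bp outside. Top, arrays, runs of 2 or 3 calls and calls with no step in range. Bottom, array ends by the distance to the next call. Swings at 1 period outside were 58.2% for arrays, 38.8% for runs of 2 or 3 calls and 20.6% for single calls.

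A gap at one end went with an order inside the array. In the 1624 arrays with a gap of 260 bp or more at one end and an overlapping call at the other, read centres at the midpoints were fewest beside the gap. They averaged 0.655 ± 0.092 at the first midpoint from the gap, 0.816 ± 0.086 at the second and 1.11 ± 0.130 at the third (SD over 12 chromosomes). The first was below the third on 12 of 12 chromosomes, and all 3 stood in this order on 11. The steps were alike at these places, with means of 178.0, 177.5 and 178.5 bp. The calls were also lowest beside the gap, with 5.41 read centres there and 6.21, 6.64 and 6.31 at the second, the third and the fourth call. The first call was below the third on 11 of 12 chromosomes. The 1133 arrays of exactly 4 calls had the same order at midpoints (0.660, 0.897 and 1.19), so the order also held at a single array length. In these the third midpoint from the gap was also the one beside the overlapping call. Distance from the gap and closeness to the overlapping call therefore cannot be told apart here. In the 2541 arrays with overlapping calls at both ends, the outermost midpoint had 1.46 ± 0.076 and the next 1.34 ± 0.084, and the outermost was the higher on 10 of 12 chromosomes. These means mix array lengths. In those of exactly 4 calls the 2 levels were nearly alike (1.51 ± 0.069 and 1.48 ± 0.112). Read centres between calls were thus fewest next to a gap. The lower level at the end call was not particular to a gap. With overlapping calls at both ends, the end calls had 5.47 read centres and the second calls 5.99.

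**Figure D5:**
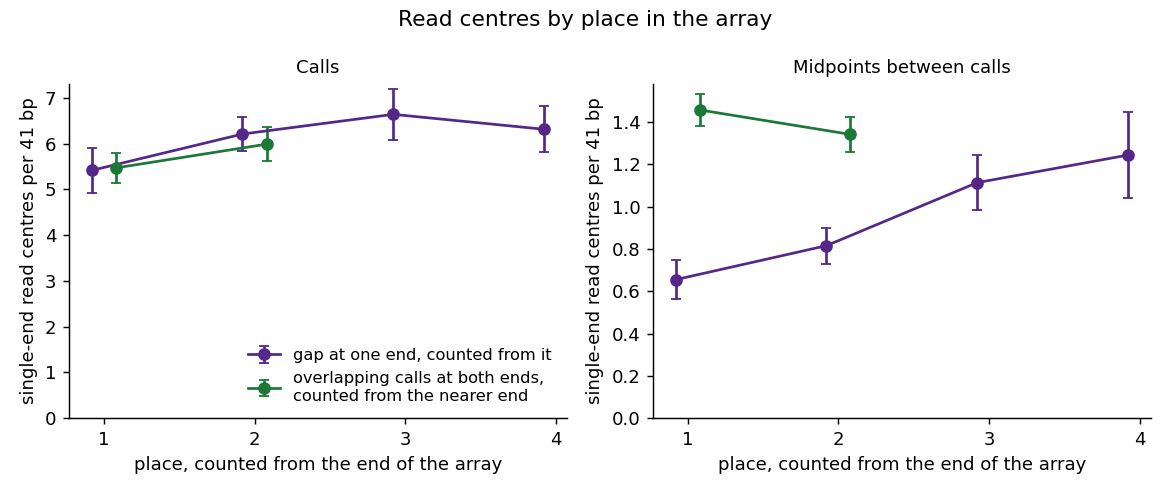
Single-end read centres by place in the array, at calls (left) and at midpoints between calls (right). Points are means per 41-bp window and error bars the SD over 12 chromosomes, for arrays with a gap of 260 bp or more at one end (purple, counted from the gap) and arrays with overlapping calls at both ends (green, counted from the nearer end). Midpoints were at 0.655, 0.816 and 1.11 from the gap, against 1.46 and 1.34 with overlapping calls.

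End calls had on average fewer read centres than inner ones. In all arrays the calls at the ends had 5.55 read centres and a mean score of 0.566, the second calls 6.08 and 0.610, and those further in 6.07 and 0.626. The SD over calls was 5.36 to 5.67, so this describes averages over 3041 or more calls and not single nucleosomes. Calls without any read centre did not follow this order, at 13.7% of end calls, 12.3% of second calls and 14.5% of those further in. Calls further in exist only in arrays of 5 or more calls, so the places were not matched for array length.

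Arrays were found on every chromosome at similar density, 21.6 per Mb on average. Chromosome 5 had the most per Mb (23.4, with 698 arrays) and chromosome 4 the fewest per Mb (20.1, with 709 arrays). The SD over chromosomes was 1.04 per Mb, and the median step was 176 or 177 bp on all 12. Among 366 bins of 1 Mb the median was 21 arrays, and the 5th and 95th percentiles were 13 and 30. The highest number, 40, was at the start of chromosome 5, from 1 to 1000000, followed by 38 on the same chromosome from 4000001 to 5000000. The lowest, 8, was on chromosome 4 from 7000001 to 8000000. The next lowest was 9 in 3 bins, which were on chromosome 3 from 18000001 to 19000000 and from 31000001 to 32000000, and on chromosome 10 from 6000001 to 7000000. Over bins the number of arrays had a Spearman's rho of 0.258 with the number of single-end reads and of -0.157 with the number of calls. Neighbouring bins are not independent, and these values are descriptive.

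Density declined with distance from the nearer chromosome end. It was 24.2 arrays per Mb within 1 Mb of an end and 24.8 from 1 to 2 Mb, then 23.5 from 2 to 5 Mb, 21.01 from 5 to 10 Mb and 19.9 beyond 10 Mb. Within 1 Mb it was higher than beyond 10 Mb on 9 of 12 chromosomes. The steps did not follow this order, as their median was 176 or 177 bp in each class. The ratio of read centres at calls to midpoints was 6.45 (6.16 to 6.76) within 1 Mb, 5.50 from 1 to 2 Mb and from 2 to 5 Mb, 5.24 from 5 to 10 Mb and 5.10 (4.99 to 5.21) beyond 10 Mb. It was higher within 1 Mb than beyond 10 Mb on 11 of 12 chromosomes. Arrays near the chromosome ends were thus somewhat more frequent, and their single-end reads were more strongly confined to the calls, at unchanged median spacing. Shorter runs were not measured in these distance classes, so whether this was particular to arrays was not tested.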

How the data were processed

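MNase-seq data from 1 biological replicate in each form were used. Single-end reads of 36 bp were placed by the authors on TIGR release 5 with MAQ (1 mismatch allowed), and unique positions were deposited with both technical replicates together. From the paired-end library the authors called nucleosomes with nucleR on fragments of up to 200 bp, trimmed to the middle 40 bp. Each deposited call has a length of 120 bp and a score, whose scale and threshold are not given in the sources used here. A second list of calls was identical and was not used. Read pairs and DNase data were not analysed here.

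Positions were analysed with Python 3.11.15, numpy 2.4.6, pandas 2.3.3 and scipy 1.17.1, and drawn with matplotlib 3.10.9. Read centres were placed 73 bp inside the 5′ end and counted within 20 bp of a call or of the midpoint between adjacent calls. The ratio is the mean number at calls over the mean number at midpoints. For spacing, the first maximum beyond 120 bp was taken from distances between ends on one strand within 93 bp of an array, smoothed over 11 bp. Scripts were tested on simulated data. Arrays, comparisons and measures were chosen with earlier results of these data known. Arrays named in the text were the 3 with the most calls and, among those of 8 or more calls, the 3 with the smallest SD of steps, and chromosomes and 1-Mb bins were named for the highest and lowest numbers of arrays. No gene was named. No test between conditions was possible. Errors are SDs or ranges over the 12 chromosomes, and 95% intervals hold counting error alone, as PCR copies could not be told from separate molecules. Depth was 71.3 single-end reads per kb, so results are means over many arrays. Alternatives changed the step range, run length, calls, reads, strands, windows, centres and smoothing, and the closing section lists what they changed.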

Additional observations from a re-analysis of the deposited data

How the results depend on the processing

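Of 58 alternative values over 8 results, 26 moved by less than the SD over chromosomes (for the number of arrays, by less than 1.5 times) and 32 by more. Beyond what each construction implies, the cause of these changes was not tested. The ratio was higher in arrays than in runs of 2 or 3 calls under each alternative that gave both. With steps of 150 to 220 bp there were 15507 arrays with 2.01% of the calls, a median step of 173 bp, a ratio of 4.65 and a swing of 48.8% at 1 period beyond the end. With the narrower range of steps, up to 200 bp, there were 3913 with 0.485%, 178 bp, 5.79 and 67.7%. Runs of 6 or more calls numbered 599 with 0.113% of the calls, 176 bp, a ratio of 7.48 and a swing of 48.1% at 2 periods. With calls at or above the median score only, so that steps span the calls left out, there were 22065 arrays with 5.76% of those calls, a median step of 180 bp, a ratio of 3.40, a read spacing of 181 bp and swings of 33.1% and 27.7% at 1 and 2 periods. With repeated reads (same position, same strand) reduced to 1, the ratio was 4.46 in arrays and 2.57 in runs of 2 or 3 calls, and the swing at 1 period 50.8%. Read centres within 10 bp gave ratios of 6.54 in arrays and 3.39 in shorter runs, and within 30 bp 4.30 and 2.50. Centres 65 bp inside the 5′ end gave 4.91 and 2.77, and centres at 80 bp gave 2.84 in shorter runs. The remaining alternatives, among them either strand alone, moved no result by more than its spread.

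The number of arrays and the share of calls thus depend on the rule. Each library was 1 biological replicate, so no replicate could be left out, and the libraries share no replicate number by which to pair them. At a median of 49 read centres per array, the depth limits statements on single arrays.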
